A study of Rattus norvegicus with 12 samples.

Results

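The data described here are the signals of 37 genes of protein folding in the endoplasmic reticulum (ER) and of the unfolded protein response in rat N27 cells exposed to the insecticide fipronil. The genes were a list of names, and every array probe that was not a control spot and carried one of those names, or an older symbol of the same gene, was taken. This gave 53 of the 45598 probes. A gene was tested where at least 6 of the 12 arrays showed a probe of it well above background, and 36 of the 37 passed, among 13542 genes and transcripts in all. Derl2, which encodes a derlin of the ER membrane, had no probe under its name and was not analysed here.

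N27 is an immortalised cell line from fetal rat mesencephalon, labelled as dopaminergic. Fipronil is a phenylpyrazole insecticide that blocks GABA-gated chloride channels. The 6 fipronil samples had 25 µM of it for 24 h and the 6 control samples were untreated cells of the same line, with no genetic change in either group. Total RNA of each sample was labelled with Cy3 and read on a 1-colour Agilent rat array. Whether the samples of a group were separate cultures, and whether controls had a vehicle, the labels do not say, so the p-values reflect only how far these samples spread, and that spread may be technical. Each array reads RNA of a whole culture, in which fewer cells of a kind and less RNA per cell cannot be told apart.

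There were 3 slides of 4 arrays. Both treatments shared slide 1 (controls 2 and 3, fipronil 7 and 8), while controls 5 to 8 filled slide 2 and fipronil 1 to 4 filled slide 3. Brightness moved with the slide: the 75th percentile of an array's signal was 245 to 279 on slide 1, 379 to 472 on slide 2 and 111 to 140 on slide 3. Per the file headers, slides 1 and 2 were scanned on the same day and slide 3 on a different day. Between slides 2 and 3, treatment, slide and scan day cannot be told apart. Each difference is therefore given over the 12 arrays and also within slide 1, where 2 arrays stand against 2. Of 10 markers of dopaminergic neurons 2 were tested. Th, the rate-limiting enzyme of dopamine synthesis, was well above background on every array, and Aldh1a1 on 6 control and 2 fipronil arrays. The dopamine transporter gene Slc6a3 had no probe past the filter. Of 25 markers of astrocytes, oligodendrocytes, microglia and leukocytes, endothelium and fibroblasts 6 were tested, and none of the 5 astrocyte markers was among them. The endothelial Vwf and Flt1, the microglial Cx3cr1 and the fibroblast Pdgfrb were well above background on every array. Mean log2 signals relative to the 75th percentile were 1.94 (control) and 1.90 (fipronil) for Vwf, and -1.37 and -1.86 for Th. No marker of any list passed the test.

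Proteins that are secreted or sit in membranes enter the ER through the SEC61 channel and fold there with the help of chaperones, disulfide isomerases and lectins that read their glycans. Chains that fail to fold are pulled back to the cytosol and degraded. When unfolded chains build up, the sensors IRE1 (the product of Ern1), ATF6 and PERK start the unfolded protein response. The first and the second of these act largely through the transcription factors XBP1 and cleaved ATF6, which raise the genes of folding and degradation, and PERK slows translation and favours the factors ATF4 and CHOP. In midbrain dopamine neurons the response is much studied for its place in models of Parkinson's disease.

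Many genes of the response carry short promoter elements through which these factors act. Promoter sequence, from 250 bases before to 50 after the annotated start, was taken from RefSeq (build GRCr8), where 29 of the 37 genes had an entry. A gene with several starts has several windows (33469 in all) and was counted once. Each was searched on both strands for the ER stress response element ERSE (CCAAT and CCACG with 9 unspecified bases between them), which ATF6 binds together with NF-Y, for ERSE-II (ATTGG and CCACG with 1 unspecified base between them) and for the unfolded protein response element UPRE (TGACGTGG), which XBP1 binds. An exact ERSE stood in 8 of the 29 genes (27.6%), against 0.0765% of the 27457 rat genes with an entry, and an ERSE-II in 3 (10.3%), against 0.0619%. A UPRE was found in Dnajc10, Hyou1 and Vcp (10.3%), against 0.681% of all genes, and the one of Hyou1 overlaps an ERSE-II. Either of the ERSE forms stood in 11 genes (37.9%, against 0.138%). The list was drawn up from genes of this response, so the high share is a property of the list, and a match is a description and not a proven site. The elements of the genes that the results turn on are shown with 6 bases on either side, 5′ to 3′ on the strand given, with the matched element in capitals.

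Hspa5, ERSE, chr3:38452967-38452997, + strand: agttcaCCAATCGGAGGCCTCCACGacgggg
Hsp90b1, ERSE, chr7:23012445-23012475, - strand: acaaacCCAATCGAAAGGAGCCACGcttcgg
Hsp90b1, second ERSE, chr7:23012341-23012371, + strand: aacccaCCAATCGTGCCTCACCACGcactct
Xbp1, ERSE, chr14:84604552-84604582, + strand: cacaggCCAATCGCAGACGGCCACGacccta
Calr, ERSE, chr19:40213129-40213159, - strand: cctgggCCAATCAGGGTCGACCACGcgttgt
Dnajc3, ERSE, chr15:102432528-102432558, + strand: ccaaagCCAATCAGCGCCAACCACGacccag
Dnajb11, ERSE-II, chr11:91672794-91672816, - strand: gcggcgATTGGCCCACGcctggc
Herpud1, ERSE-II, chr19:10614815-10614837, - strand: gcgctgATTGGGCCACGttgggc
Hyou1, ERSE-II, chr8:53602688-53602710, - strand: ctgcggATTGGCCCACGtcacgg
Hyou1, second ERSE-II, chr8:53602788-53602810, - strand: gtccccATTGGGCCACGtagaag

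The ERSE of Hspa5 lies from 43 to 25 bases before the annotated start, that of Xbp1 from 65 to 47 bases before it, and the ERSE-II of Dnajb11 ends at the start itself. Both ERSE-II matches of Hyou1 read against the direction of the gene. The 250 bases before the start of Hspa5, the chaperone gene by which this response is usually read, are shown because the gene's single exact ERSE is close to the start, at the right-hand end (chr3:38452766-38453015, + strand, ERSE in capitals).

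Hspa5: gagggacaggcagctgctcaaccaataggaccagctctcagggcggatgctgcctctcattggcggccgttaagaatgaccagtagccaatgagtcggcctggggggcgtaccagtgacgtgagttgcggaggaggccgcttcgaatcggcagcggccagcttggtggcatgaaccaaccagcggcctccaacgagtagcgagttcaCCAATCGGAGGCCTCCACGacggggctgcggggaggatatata

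Of the 36 tested genes, 1 rose with fipronil, the sensor gene Atf6, and 1 fell, the chaperone cofactor gene Dnajb11. The other 34 did not pass the test (limma, Benjamini-Hochberg adjusted p under 0.05 over all 13542 genes). Over all genes 5.01% passed, 2.24% as higher (303) and 2.77% as lower (375), so 2 of 36 is close to the background. With median scaling of the arrays the split over all genes was 150 higher and 435 lower, and after normexp background correction with the 75th percentile 5116 higher and 1660 lower. In the last of these 8 of the 36 genes were higher (Atf6, Derl3, Dnajb9, Edem2, Ern1, Os9, Pdia5 and Sel1l) and 7 lower (Dnajb11, Edem1, Hspa5, Manf, P4hb, Sec61g and Ssr1). With the main scaling, leaving out single arrays gave 0 to 3 higher and 0 to 1 lower. The log2 differences of the 36 genes, fipronil minus control, ran from -0.53 to 0.59 with a median of -0.04, against a median of -0.08 over all genes tested. Of the 36 genes 16 were above and 20 below 0, and of all genes 5454 were above and 8088 below. At an unadjusted p under 0.05 there were 7 of the 36 and 3390 of the 13542. Values of fipronil and control arrays did not overlap in 2 of the 36, Atf6 and Dnajb11, beside 4.18% of all genes.

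**Figure D1:**
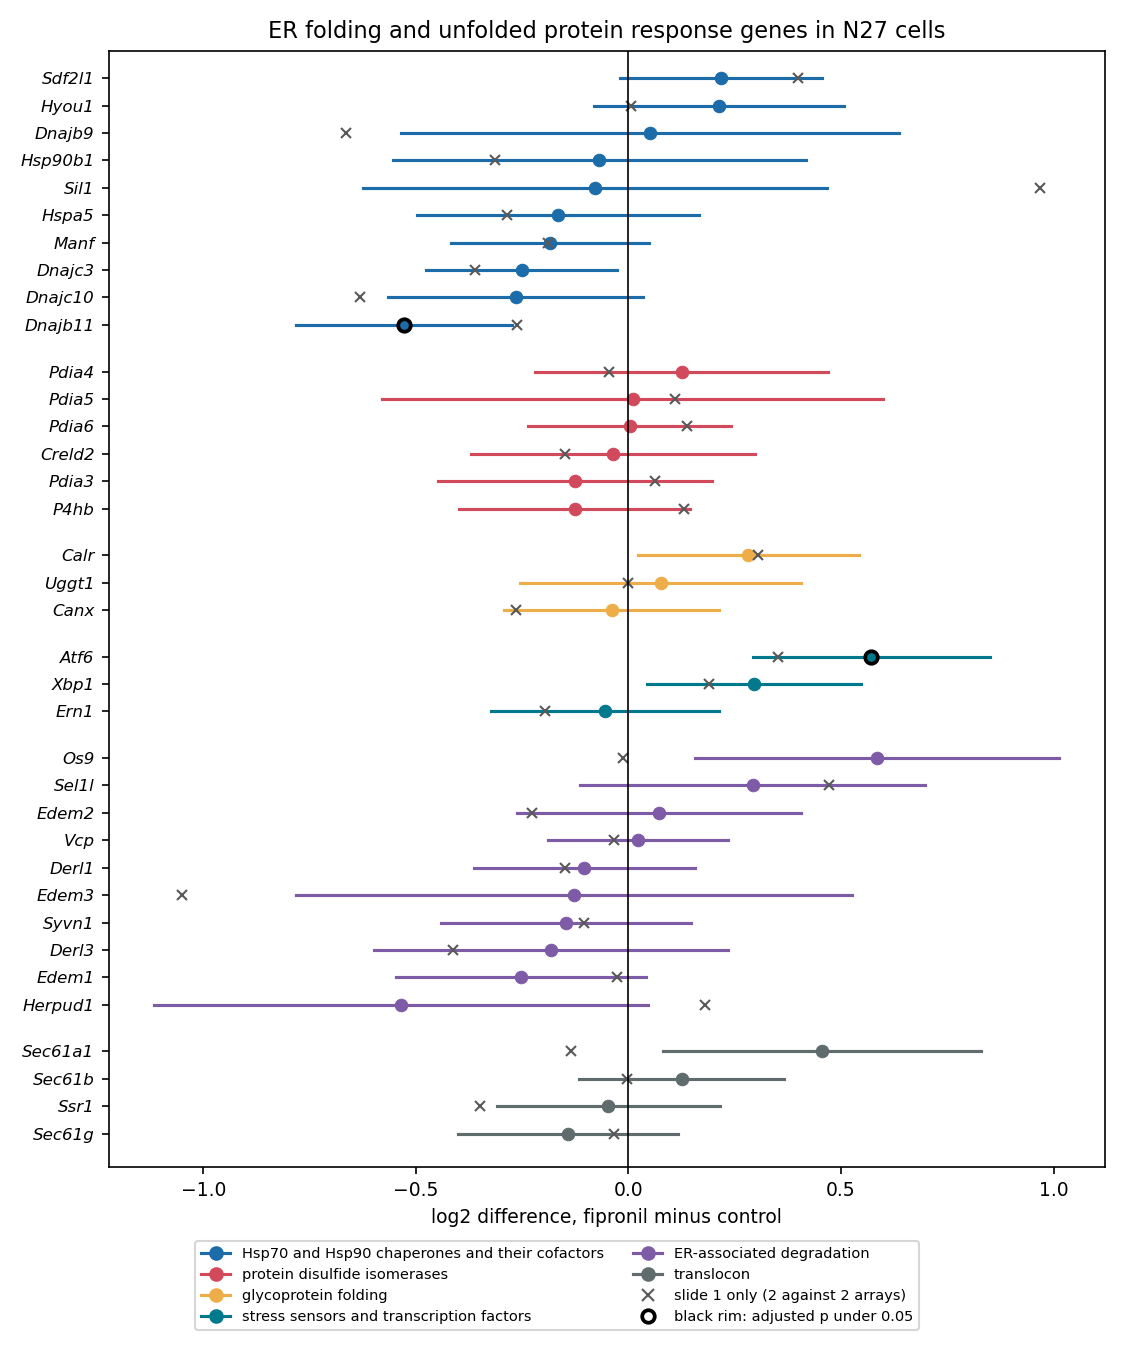
Log2 difference (fipronil minus control, horizontal axis) of each of the 36 tested genes, grouped by role; points are the estimates over 12 arrays with 95% confidence intervals, crosses are the difference within slide 1, and a black rim marks an adjusted p under 0.05. Only Atf6 (0.57) and Dnajb11 (-0.53) carry a rim, and their crosses (0.35 and -0.26) lie on the same side of 0 but nearer to it.

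The sensor and transcription factor genes were Atf6, Ern1 and Xbp1, of which 1 passed the test, beside 5.01% of all genes. Atf6, on chromosome 13, encodes a membrane-bound transcription factor that is carried to the Golgi under stress and cut there. Its signal, in log2 units relative to the 75th percentile of the array, was -0.76 at the lowest, -0.71 at the median and -0.53 at the highest over the 6 control arrays. Over the fipronil arrays it was -0.42, -0.12 and 0.38. Every fipronil array was above every control array, the brightest being fipronil replicate 3 on slide 3. The difference was 0.57 ± 0.13 (SE, 95% confidence interval 0.29 to 0.85, limma adjusted p 0.0288), or 1.49-fold. Within slide 1 it was 0.35 (adjusted p 0.385 when slide was a fixed term of the limma fit), and across slides 2 and 3 it was 0.68. A second probe of Atf6 differed by 0.39, and by 0.14 within slide 1, and did not pass (adjusted p 0.159 over all probes kept).

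The call of Atf6 ended with slide as a random block (adjusted p 0.163), with median scaling (0.0646), with the mean over its probes (0.0519), and without any 1 of control replicates 2, 5, 6, 7 or 8 or fipronil replicates 2 or 4, where the adjusted p reached 0.0647. Its direction was the same in all 12 other settings and all 12 fits without 1 array.

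Xbp1 encodes the factor whose mRNA IRE1 splices, and the array does not tell the spliced form from the unspliced one here. Its signal was 0.56, 0.96 and 1.02 at the lowest, median and highest control array and 0.997, 1.19 and 1.47 over the fipronil arrays. The groups met at their edges, with control replicate 7 above fipronil replicate 7. The difference of 0.30 ± 0.12 (SE, interval 0.04 to 0.55) did not pass after adjustment (limma adjusted p 0.139), and was 0.19 within slide 1 and 0.35 across slides 2 and 3. Ern1, the kinase and nuclease IRE1 itself, ran from -2.58 to -2.05 in controls and from -2.55 to -2.04 with fipronil. The ranges of Ern1 were almost the same, and its difference was -0.05 ± 0.12 (SE, limma adjusted p 0.822), with -0.20 within slide 1. Only after normexp correction with the 75th percentile did Ern1 pass, at 0.37 (limma adjusted p 0.013).

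**Figure D2:**
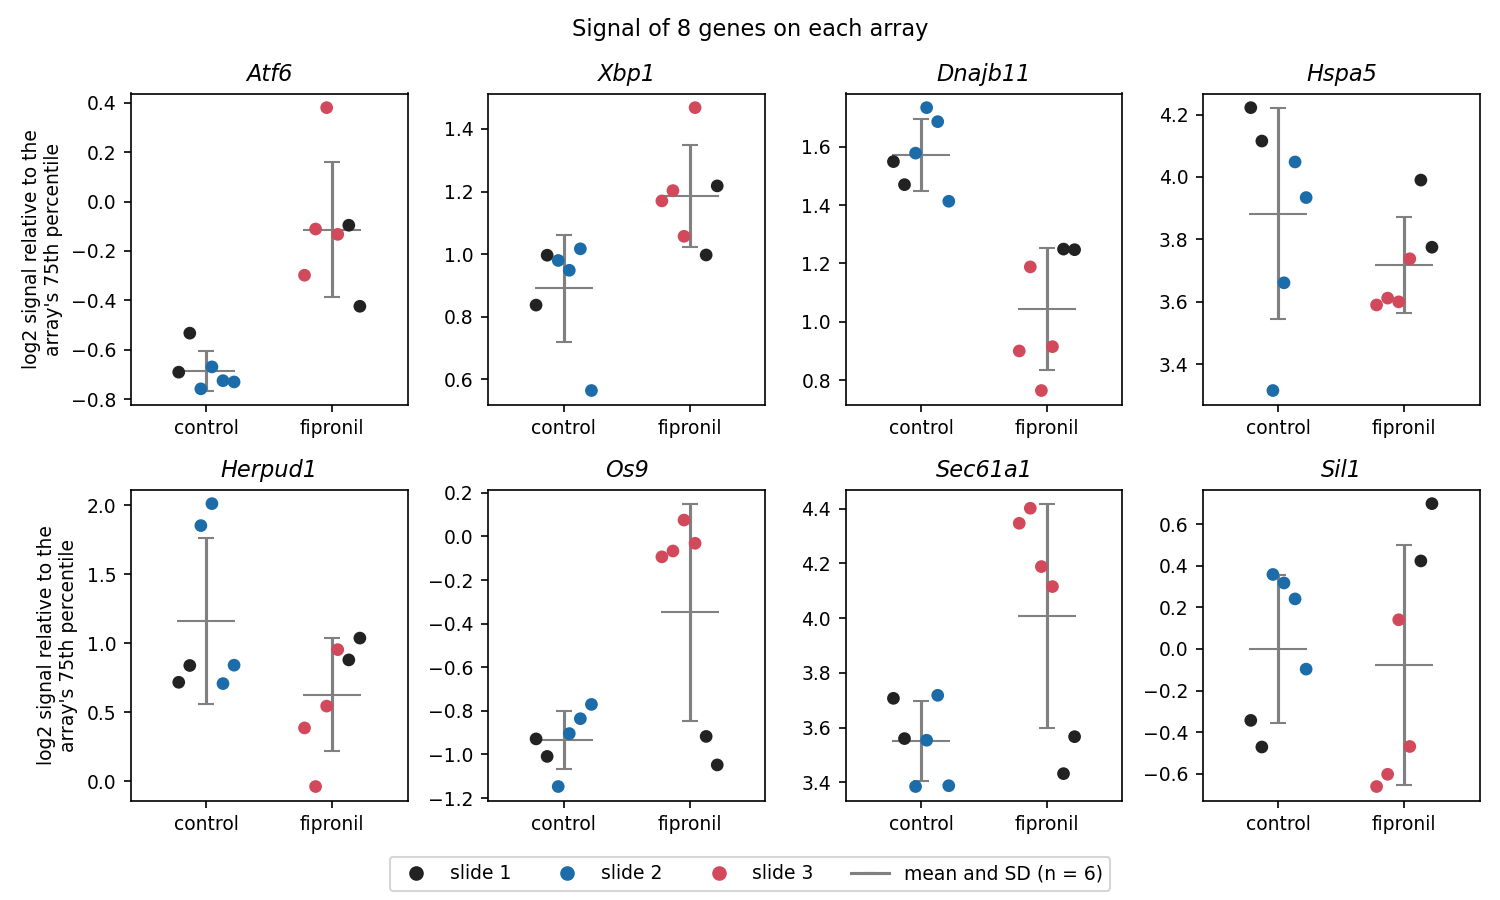
Log2 signal relative to the array's 75th percentile (vertical axis) of 8 genes on each of the 6 control and 6 fipronil arrays; colours give the slide, and the grey bar is the mean with SD (n = 6). In the panels of Os9 and Sec61a1 the 4 slide 3 arrays stand above all others, and in that of Herpud1 a pair of slide 2 control arrays (1.85 and 2.01) stands above the rest.

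Among the 10 Hsp70 and Hsp90 chaperones and their cofactors 0 rose and 1 fell, beside 2.24% and 2.77% of all genes. The median difference was -0.12, against -0.08 over all genes. Dnajb11, on chromosome 11, encodes a J-domain protein that hands unfolded chains to BiP, the product of Hspa5. Its control arrays ran from 1.41 through a median of 1.56 to 1.73, and its fipronil arrays from 0.76 through 1.05 to 1.25. All fipronil values were below all control values, with the fipronil pair on slide 1 (both 1.25) nearest to the controls. The difference was -0.53 ± 0.12 (SE, 95% confidence interval -0.78 to -0.27, limma adjusted p 0.0279), a 1.44-fold fall. It was -0.26 within slide 1 (adjusted p 0.429 when slide was a fixed term) and -0.66 across slides 2 and 3.

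Dnajb11 did not pass with slide as a random block (adjusted p 0.163) or without any 1 of control replicates 5, 6 or 7 or fipronil replicates 1, 3 or 4, where the adjusted p reached 0.066. It stayed below 0 in each of these fits.

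Hspa5, on chromosome 3, was 3.32, 3.99 and 4.22 at the lowest, median and highest control array and 3.59, 3.67 and 3.99 over the fipronil arrays. All fipronil values lay inside the range of the controls, whose lowest arrays were control replicates 5 and 6 on slide 2. Its difference was -0.17 ± 0.15 (SE, limma adjusted p 0.530), with an interval of -0.50 to 0.17, and -0.29 within slide 1. After normexp correction with the 75th percentile, and in no other setting, Hspa5 passed, at -0.40 (limma adjusted p 0.0388). Hsp90b1, the ER member of the Hsp90 family, ran from 1.22 to 2.29 in controls and from 1.22 to 2.39 with fipronil. These ranges coincided almost fully, and the difference was -0.07 ± 0.23 (SE, interval -0.55 to 0.42, limma adjusted p 0.879), with -0.31 within slide 1.

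Dnajb9, a J-domain protein known as a strong target of XBP1, was -3.72, -2.89 and -2.32 at the lowest, median and highest control array and -3.29, -2.98 and -2.21 over the fipronil arrays. The controls spread more widely than the fipronil arrays, and the difference of 0.05 ± 0.27 (SE, limma adjusted p 0.925) was -0.66 within slide 1 and 0.41 across slides 2 and 3. Dnajb9 passed only after normexp correction with the 75th percentile, at 0.55 (limma adjusted p 0.0159). Sdf2l1, a cofactor that keeps BiP clients soluble, ran from 2.06 to 2.46 in controls and from 2.35 to 2.75 with fipronil. Its ranges overlapped, and the difference was 0.22 ± 0.11 (SE, limma adjusted p 0.238), with 0.40 within slide 1. Dnajc3, a cochaperone of BiP, differed by -0.25 ± 0.10 (SE, limma adjusted p 0.157) and by -0.36 within slide 1, and Dnajc10, a J-domain reductase, by -0.27 and -0.63. The nucleotide exchange factor gene Hyou1 differed by 0.21 and Manf, a secreted BiP partner with a neurotrophic role, by -0.19, neither past the test. Sil1, the other exchange factor of BiP, differed by -0.08 over the 12 arrays, with values that differed between slides and are given with them.

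None of the 6 disulfide isomerase genes passed, and their median difference was -0.02. P4hb, the founding disulfide isomerase, ran from 2.64 to 2.92 in controls and from 2.29 to 2.97 with fipronil. The 3 lowest fipronil values came from slide 3, and the difference was -0.13 ± 0.13 (SE, limma adjusted p 0.560), with 0.13 within slide 1. The differences of Pdia3, which works on glycoproteins, Pdia4, Pdia6 and Creld2 were -0.13, 0.13, 0.00 and -0.04. Pdia5 was dim, being well above background on 5 control arrays and 2 fipronil arrays, and its difference of 0.01 has an interval of -0.58 to 0.60.

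In glycoprotein folding, 0 of 3 genes passed and the median was 0.08. Calr, a calcium-binding lectin chaperone, was 2.39, 2.60 and 2.77 at the lowest, median and highest control array and 2.57, 2.91 and 3.15 over the fipronil arrays. The groups overlapped, with fipronil replicates 1 and 4 inside the control range. The difference of 0.28 ± 0.12 (SE, interval 0.02 to 0.54) did not pass after adjustment (limma adjusted p 0.169), and was 0.31 within slide 1 and 0.27 across slides 2 and 3. Its membrane-bound partner Canx differed by -0.04. Uggt1, which marks misfolded glycoproteins for another round, differed by 0.08 at the probe used, whereas a dimmer probe of the gene was higher by 0.74 (adjusted p 0.0328 over all probes kept) and by 0.62 within slide 1, so the probes of Uggt1 disagree.

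Of the 11 genes of ER-associated degradation 10 were tested and 0 passed, with a median difference of -0.12. Herpud1, an ER membrane protein of the degradation complex and a common marker of the response, was 0.71, 0.84 and 2.01 at the lowest, median and highest control array and -0.04, 0.71 and 1.04 over the fipronil arrays. Control replicates 5 and 6, at 1.85 and 2.01, stood above all other arrays, and the remaining 4 controls lay within the fipronil range. Its difference of -0.53 ± 0.27 (SE, limma adjusted p 0.235) was 0.18 within slide 1 and -0.89 across slides 2 and 3.

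Os9 encodes a lectin that delivers glycoproteins to the ubiquitin ligase. Its control arrays ran from -1.15 through -0.92 to -0.77, and its fipronil arrays from -1.05 through -0.08 to 0.08. The 4 fipronil arrays of slide 3 were above all controls, and the pair on slide 1 was among the controls. The difference of 0.59 ± 0.20 (SE) did not pass (limma adjusted p 0.0948), except with no filter on dim probes (0.0376), after normexp background correction and 75th percentile scaling (0.0131), or without either of fipronil replicates 7 and 8, the slide 1 arrays. A second, dimmer probe of Os9 differed by 0.00.

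The mannosidase-like genes Edem1, Edem2 and Edem3, which mark chains for removal, differed by -0.25, 0.07 and -0.13. A dimmer probe of Edem1 differed by 0.23 (limma adjusted p 0.318 over all probes kept). For Edem3 the controls ran from -0.90 to 0.73 and the fipronil arrays from -0.95 to 0.22, so that both groups spread widely and overlapped. The ligase gene Syvn1 differed by -0.15, its partner Sel1l by 0.29, the derlin gene Derl1 by -0.10 and the ATPase gene Vcp, which pulls chains out of the membrane, by 0.02 ± 0.10 (SE, interval -0.19 to 0.24). Derl3 was well above background on 6 control arrays and 1 fipronil array. Its slide 3 values, -4.57 to -3.81, each lay below the lowest signal flagged as above background on their array. Derl3 differed by -0.18, which turned to 0.62 and passed after normexp correction with the 75th percentile (limma adjusted p 0.00232). A second probe of Derl3, about as dim, differed by -0.49, and by -0.33 within slide 1 (limma adjusted p 0.215 over all probes kept). Of these genes Vcp had the narrowest interval.

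The translocon genes, 4 of 4 tested, held 0 calls and a median of 0.04. Sec61a1 encodes the channel itself. Its control arrays were 3.39, 3.56 and 3.72 at the lowest, median and highest and its fipronil arrays 3.43, 4.15 and 4.40. The 4 fipronil arrays of slide 3 were above all others, and fipronil replicates 7 and 8 lay within the controls. The difference was 0.46 ± 0.17 (SE, limma adjusted p 0.127), and it passed without either of those slide 1 arrays (adjusted p 0.0474 at the lowest). The small subunits Sec61b and Sec61g differed by 0.13 and -0.14, and Ssr1, of the translocon-associated complex, by -0.05 at the probe used. Dimmer probes of Ssr1 differed by -0.39 and -0.27, and by -0.50 and -0.25 within slide 1. They did not pass (limma adjusted p 0.0882 and 0.210 over all probes kept).

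Within slide 1 the median of the 36 genes was -0.04, against -0.02 over all genes. There 12 of the 36 were above and 24 below 0, against 6555 above and 6987 below over all genes. The direction within slide 1 was that over the 12 arrays in 24 of 36, against 7951 of the 13542. The 12-array difference contains the slide 1 arrays, so the directions are not independent. With slide as a fixed block 0 of the 36 passed in limma, beside 0.0886% of all genes, and 4 of the 36 and 2578 of the 13542 had an unadjusted p under 0.05. With slide as a random block 0 passed in limma as well, beside 0.155% of all genes, and 5 of the 36 and 1993 of the 13542 had an unadjusted p under 0.05. The largest slide 1 differences were those of Edem3 (-1.05), Sil1 (0.97), Dnajb9 (-0.66) and Dnajc10 (-0.63), each from 2 arrays against 2.

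The difference within slide 1 was then set against that across slides 2 and 3 in a limma contrast. It differed in 3 of the 36 genes, Sil1, Os9 and Sec61a1, beside 9.14% of all genes. Sil1 was -0.34 and -0.47 in the slide 1 controls and 0.42 and 0.70 in the slide 1 fipronil arrays, but -0.10 to 0.36 in the slide 2 controls and -0.66 to 0.14 in the slide 3 fipronil arrays. The order of the groups was thus turned, with 0.97 within slide 1 and -0.60 across slides 2 and 3, and the contrast was 1.57 ± 0.32 (SE, limma adjusted p 0.0214). For Os9 the differences were -0.01 and 0.89 and the contrast -0.90 ± 0.20 (SE, limma adjusted p 0.0265). For Sec61a1 they were -0.13 and 0.75 and the contrast -0.89 ± 0.21 (SE, limma adjusted p 0.032). Atf6 and Dnajb11 gave no such call (limma adjusted p 0.401 and 0.213).

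**Figure D3:**
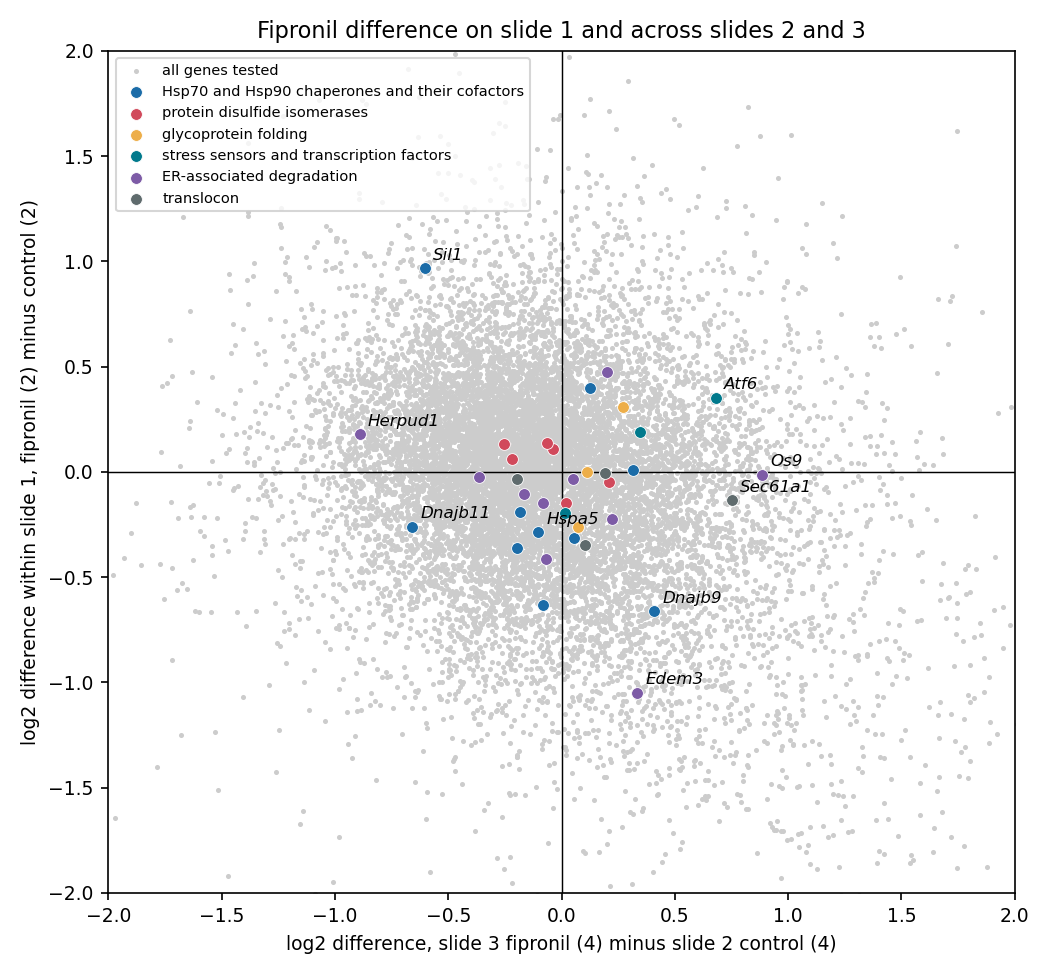
Log2 difference within slide 1 (2 fipronil minus 2 control arrays, vertical axis) against that across slides 2 and 3 (4 slide 3 fipronil minus 4 slide 2 control arrays, horizontal axis); grey points are all genes tested, without 109 of 13542 that lie outside the axes, and coloured points the 36 genes by role. Sil1 lies at upper left (0.97 within slide 1, -0.60 across slides 2 and 3). Os9 and Sec61a1 lie to the right, Os9 close to the zero line of slide 1 (-0.01) and Sec61a1 below it (-0.13).

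The 11 genes with an ERSE or ERSE-II were set beside the others as a description. Of these 11, 0 rose and 1 fell (Dnajb11), their median difference was -0.07, with a range from -0.53 (Herpud1) to 0.30 (Xbp1), and 3 were above 0. Within slide 1 their median was -0.26 and 4 were above 0. Of all 13542 genes, 2.24% rose and 2.77% fell, and 5454 were above 0 over the 12 arrays and 6555 within slide 1. Their median was -0.08 over the 12 arrays and -0.02 within slide 1. The 17 tested genes whose promoter entry held neither element had a median of 0.01, with 0 called and 9 above 0, and within slide 1 a median of -0.03. The 8 genes with no promoter entry, Atf6 among them, had a median of -0.03.

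A wider list of 137 ER genes in 7 groups was read in the same fit, and of the 128 tested 0 rose and 3 fell, beside 2.24% and 2.77% of all genes. Their median difference was -0.15 and 90 were below 0, against a median of -0.08 and 8088 of 13542 below 0 over all genes. Ube2j2, a conjugating enzyme of ER degradation, ran from 1.15 to 1.501 in controls and from 0.36 to 0.996 with fipronil, with no overlap. It fell by 0.69 ± 0.13 (SE) on the log2 scale (limma adjusted p 0.0154, -0.40 within slide 1). Ube2j2 passed in each of the 12 leave-one-out fits, but not with slide as a fixed or a random block (limma adjusted p 0.257 and 0.0934). Erlin1, a raft-like scaffold that recruits a ligase to calcium channels, fell by 0.59 ± 0.14 (SE, limma adjusted p 0.0293, -0.46 within slide 1), with overlap between the groups. Copb1, a coat protein of retrograde vesicles, fell by 0.61 ± 0.15 (SE, limma adjusted p 0.0386, -0.37 within slide 1), also with overlap. Erlin1 passed in 4 and Copb1 in 2 of the 12 leave-one-out fits, where the adjusted p reached 0.0712 and 0.092. Neither passed with slide as a fixed block (limma adjusted p 0.315 and 0.310) or as a random block (0.160 for both).

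In the PERK branch and stress apoptosis group, 0 of 14 genes passed in either direction and the median difference was -0.05. Ddit3, which encodes CHOP, was 1.14, 1.56 and 2.75 at the lowest, median and highest control array and 1.82, 2.70 and 3.34 over the fipronil arrays. The groups overlapped widely, and its difference of 0.73 ± 0.33 (SE, interval 0.02 to 1.45, limma adjusted p 0.189) was 1.14 within slide 1 and 0.53 across slides 2 and 3. Atf4 differed by -0.23 ± 0.19 (SE, limma adjusted p 0.481) and the PERK gene Eif2ak3 by 0.01 ± 0.17 (SE, limma adjusted p 0.967). The median of the group was 0.48 within slide 1, with 11 of 14 above 0, and -0.46 across slides 2 and 3. Over all genes the medians were -0.02 and -0.10, and 6555 of 13542 were above 0 within slide 1. The contrast of the slide differences passed for 3 of the 14 genes, Eif2s1, Ddit4 and Bbc3, beside 9.14% of all genes. Eif2s1, the eIF2 alpha subunit that PERK phosphorylates, was -0.56 within slide 1 and 1.11 across slides 2 and 3 (limma adjusted p 0.0115). Ddit4 and Bbc3 were chosen after their values were seen (limma adjusted p 0.0447 and 0.0317).

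In oxidative folding and prolyl isomerases 0 of 21 passed (median -0.17). Ero1a, which reoxidises disulfide isomerases, differed by 0.08 ± 0.10 (SE, limma adjusted p 0.657), and the prolyl isomerase genes Fkbp2 and Ppib by -0.47 and -0.19. The other ER-associated degradation genes held 2 falls in 21 (Ube2j2 and Erlin1, median -0.27), and the ER to Golgi group 1 in 20 (Copb1, median -0.19). Over all genes 2.77% fell and the median was -0.08. No gene passed among 10 other stress transducers (median -0.16; Creb3 -0.24, Tmbim6 0.18), 30 genes of signal peptidase, oligosaccharyltransferase and translocon (median -0.05; Rpn1 -0.10, Srpra -0.20) or 12 of the calcium store and glycan trimming (median -0.05; Calu 0.04, Atp2a2 -0.16).

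**Figure D4:**
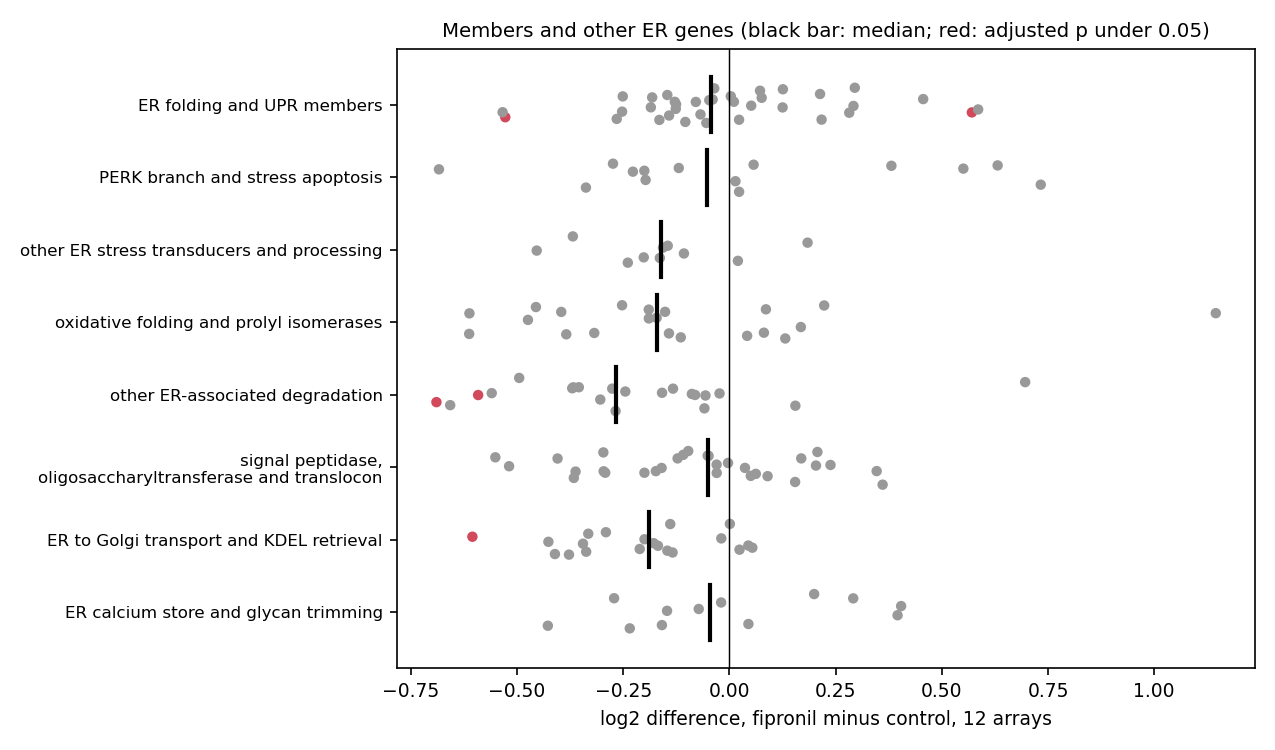
Log2 difference over the 12 arrays (horizontal axis) of each tested gene of the ER folding list and of 7 further groups of ER genes; each point is a gene, the black bar is the group's median, and red marks an adjusted p under 0.05. Atf6 is the only red point above 0, and Dnajb11, Ube2j2, Erlin1 and Copb1 are those below it.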

How the data were processed

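Per the submitters' processing notes, spots were quantified with Agilent Feature Extraction 10.7. Per the file headers, the processed signal is an intensity after subtraction of background, not scaled across arrays, and the flags (well above background, saturated, outlier) are other values of 0 or 1. The table deposited by the authors holds quantile-normalized log2 values and served as an alternative.

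Here log2 of the processed signal was taken, each array's 75th percentile was subtracted, spots flagged as outliers were left out, and spots of a probe were averaged. Probes well above background on fewer than 6 arrays were dropped, and the brightest kept probe on average stood for its gene. Names follow RefSeq for GRCr8. Groups were compared with limma 3.58.1 in R 4.3.3 (two-sided, Benjamini-Hochberg over 13542 genes, threshold 0.05), tested on simulated data beforehand. The simulated arrays varied independently and had no slide effect, so they could not test the fit under the slide layout of these data. The 37 genes and the further lists were chosen with earlier results of these data known. By rule, genes named in full were those past the threshold and, by name, Hspa5, Hsp90b1, Xbp1, Atf6, Ern1, Herpud1, Dnajb9, Sdf2l1, Calr, Ddit3, Atf4, Eif2ak3 and Ero1a. Every other tested folding gene was to be given by its log2 difference. Array values or ranges of Os9, Sec61a1, Sil1, P4hb and Edem3 are also given, outside this rule and not fixed in advance. Of each further list, up to 4 past the threshold or the 2 brightest were named. With 6 arrays in each group, their number limits the precision. Replicate numbers were not used as pairs, because arrays of one number deviated from their group means together in 1 case only (correlations over genes of 0.43, 0.08, -0.11 and -0.31). Alternatives were other scalings, backgrounds, filters, probe rules and variance settings, slide or replicate number as a block, and leaving out each array.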

Additional observations from a re-analysis of the deposited data

Results flagged for a closer look

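A single array stood far from the other 5 of its group in 9 of the 104 groups of 6 examined (52 named genes in 2 groups each), judged by the gap to the nearest array against the range of the group. Chance gives such a gap in about 1 in 20 groups. All values are log2 signals relative to the array's 75th percentile, and each of the 9 was the lowest of its group. Among the folding genes these were Hyou1 in fipronil replicate 3 (3.002, next 3.34), Edem1 in control replicate 8 (2.21, next 2.41), Sel1l in fipronil replicate 4 (-4.40, next -3.58) and Derl1 in fipronil replicate 3 (1.43, next 1.82). That value of Sel1l was not well above background. Among the further ER genes they were Calu in fipronil replicate 8 (2.65, next 3.16), Atp2a2 in fipronil replicate 4 (2.74, next 2.95), Fkbp2 in control replicate 2 (2.92, next 3.31), Rpn1 in fipronil replicate 2 (3.66, next 3.83) and Ero1a in control replicate 5 (-0.53, next -0.30).

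For 5 of the same 52 named genes the fipronil difference within slide 1 was unlike that across slides 2 and 3 by the limma contrast. Over all genes tested the share was 9.14%. Ddit4 and Bbc3, given above for this contrast, were not among the 52. Slide 1 minus slides 2 and 3 was -1.67 for Eif2s1 (limma adjusted p 0.0115), 0.85 for Fkbp2 (0.0417), -0.90 for Os9 (0.0265), -0.89 for Sec61a1 (0.032) and 1.57 for Sil1 (0.0214). The part of slide or scan day in these differences was not tested.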

How the results depend on the processing

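Of the folding genes 1 was higher and 1 lower over the 12 arrays, of the further ER genes 3 passed and of all genes 678. With slide as a fixed block 12 genes passed, with slide as a random block 21 and with the replicate block 0 (2164 at an unadjusted p under 0.05 in limma), and in each 0 folding genes were higher, 0 lower and 0 further ER genes passed. Median scaling left 0 higher, moved the median of the folding genes to -0.14 and to 0.066 within slide 1, and left 1 gene whose slide differences differed. A normexp background with 75th percentile scaling, under which the median of all genes was 0.17 in place of -0.08, called 6776 genes, 8 folding genes higher and 7 lower, 53 further ER genes and 17 slide contrasts. It turned Ern1 to 0.37 and Derl3 to 0.62. With quantile normalization after normexp 10 further ER genes passed. Without a filter on dim probes 16313 of 36181 genes passed (15088 higher, 1225 lower), 2 folding genes were higher and 21 further ER genes passed. With probes well above background on all 12 arrays 11 further ER genes passed, with the mean over probes 7 (and 0 folding genes higher), and with an eBayes trend 8. Leaving out 1 array gave 228 to 2022 genes, the most without fipronil replicate 8, 0 to 3 folding genes higher, 0 to 1 lower, a median of -0.07 to 0.01, 1 to 21 further ER genes, and within slide 1 a median of -0.11 to -0.04 with 0 called when slide was a fixed block. The cause of these changes was not tested. Dim genes such as Derl3, Pdia5 and Sel1l were limited by their signal over background.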
